A study of Mus musculus with 4 samples.

Results

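Of the 55573 mouse genes in the count table, 294 are pseudogenes of ribosomal protein genes. They were taken by name and annotation. A member carries the symbol of a ribosomal protein gene followed by -ps and, in most cases, a number, and its type in the GENCODE M21 annotation contains the word pseudogene. Of 300 symbols of that form, 6 are annotated as protein coding and were left out. The 294 members comprise 287 processed and 7 transcribed processed pseudogenes, of which 184 are named after a protein of the large ribosomal subunit and 110 after a protein of the small subunit. They derive by name from 60 parent genes. Rpl48-ps1 and Rps4l-ps had no protein-coding parent of that name, and neither had a count.

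The libraries came from RNA immunoprecipitation, in which RNA held by an antibody on beads is recovered and sequenced. All 4 libraries were made from wild-type C57BL/6 embryos at embryonic day 10.0, from CD31+ cells sorted out of the caudal part of the body. An antibody against Runx1, a transcription factor needed for blood formation, was used for 2 libraries and IgG, the non-specific background control, for the other two. No label says that libraries of one group came from separate embryos, so a p-value here reflects how far these libraries scatter, which may be technical.

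A processed pseudogene is a copy of a messenger RNA that was reverse transcribed and inserted elsewhere in the genome, so it lacks the introns and usually the promoter of its parent. Ribosomal protein messenger RNAs are short and abundant in every growing cell, and mammalian genomes hold many such copies of them. A copy drifts from its parent by mutation after insertion, so a young copy is nearly identical to the messenger RNA of the parent and an old one is not. Short reads from a parent can then be assigned to a young copy, and the reverse, whatever the copy itself transcribes.

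How far a member can be told from its parent is visible in the sequences. The pairs shown are 100-base stretches of member and parent, 5′ to 3′ on the transcribed strand, taken from the GENCODE M21 transcripts (mm10) where the most bases differ inside the longest open reading frame of the parent. Capitals mark the bases that differ.
Rps19-ps3, whose fitted value lay below 0 while that of Rps19 lay above, differs from Rps19 at 6 of these bases and lies at chr4:147821986-147822085 on the minus strand.
Rps19-ps3: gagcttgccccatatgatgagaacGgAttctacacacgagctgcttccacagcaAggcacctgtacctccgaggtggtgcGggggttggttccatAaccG
Rps19: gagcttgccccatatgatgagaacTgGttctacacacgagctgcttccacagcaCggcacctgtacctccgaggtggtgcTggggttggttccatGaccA
Rpl13-ps5, the most diverged of the tested members, differs at 21 bases and lies at chrX:94789799-94789898 on the plus strand.
Rpl13-ps5: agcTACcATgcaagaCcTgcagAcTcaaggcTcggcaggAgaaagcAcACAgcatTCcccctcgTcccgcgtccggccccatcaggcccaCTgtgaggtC
Rpl13: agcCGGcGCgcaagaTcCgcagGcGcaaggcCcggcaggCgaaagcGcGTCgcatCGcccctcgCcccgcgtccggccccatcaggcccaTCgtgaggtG
Rpl3-ps1 stands for the young copies, with at most 1 differing base in any such stretch, and lies at chrX:13202572-13202671 on the plus strand.
Rpl3-ps1: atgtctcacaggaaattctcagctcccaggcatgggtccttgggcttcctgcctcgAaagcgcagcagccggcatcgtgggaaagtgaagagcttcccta
Rpl3: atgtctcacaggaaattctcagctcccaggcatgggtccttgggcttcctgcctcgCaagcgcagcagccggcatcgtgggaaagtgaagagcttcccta
Rps6-ps4 and Rps6 were identical over the whole 750 bases of Rps6-ps4, so no read lying within it can tell them apart, and the stretch at chr2:75191723-75191822 on the minus strand has no capital.
Rps6-ps4: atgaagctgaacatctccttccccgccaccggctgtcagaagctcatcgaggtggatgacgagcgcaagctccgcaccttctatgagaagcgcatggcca
Rps6: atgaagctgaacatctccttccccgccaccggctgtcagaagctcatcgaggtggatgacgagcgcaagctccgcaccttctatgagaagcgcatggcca

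Most members had no count. Of the 294 members, 192 had no count in any library, 25 had 1 to 3 counts over the 4 libraries, and 34 passed the low-count filter of edgeR and were tested. All members together held 5928 counts, and the tested members held 89.2% of these. A member without a count may still have been present up to 3 counts, which correspond to 1.79 and 1.59 counts per 1000000 gene counts (CPM) in the Runx1 libraries and 0.781 and 1.21 CPM in the IgG libraries. Such floors, and all intervals given for counts, cover counting error only.

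Whether a member was counted went with its likeness to other transcripts. Likeness was measured as the share of its 50-base words that also occur in the transcripts of other genes. Of the 30 members with no shared word, 1 had a count, and of the 51 with a share above 0 and under 10%, 6 had. In the 74 members with 50% to under 90% of words shared, 46 had counts. From 90% to under 100%, 12 of 13 members had counts. With every word shared, 16 of 33 had, and these held 11.1% of all member counts. The share of members counted thus fell at full sharing, whereas it rose with identity to the parent throughout, with counts in 44 of 55 members of at least 99% identity, 41 of 108 between 95% and 99%, 11 of 67 between 90% and 95% and 6 of 59 under 90%. The median identity was 98.9% in the members with counts and 93.2% in those without. Across members, Spearman's rho with the total count was 0.46 for shared words (n = 294) and 0.56 for identity (n = 289). The other 5 members had no alignment, including the 2 without a parent gene. Both values are descriptions of copies that share libraries, parents and reads.

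**Figure D1:**
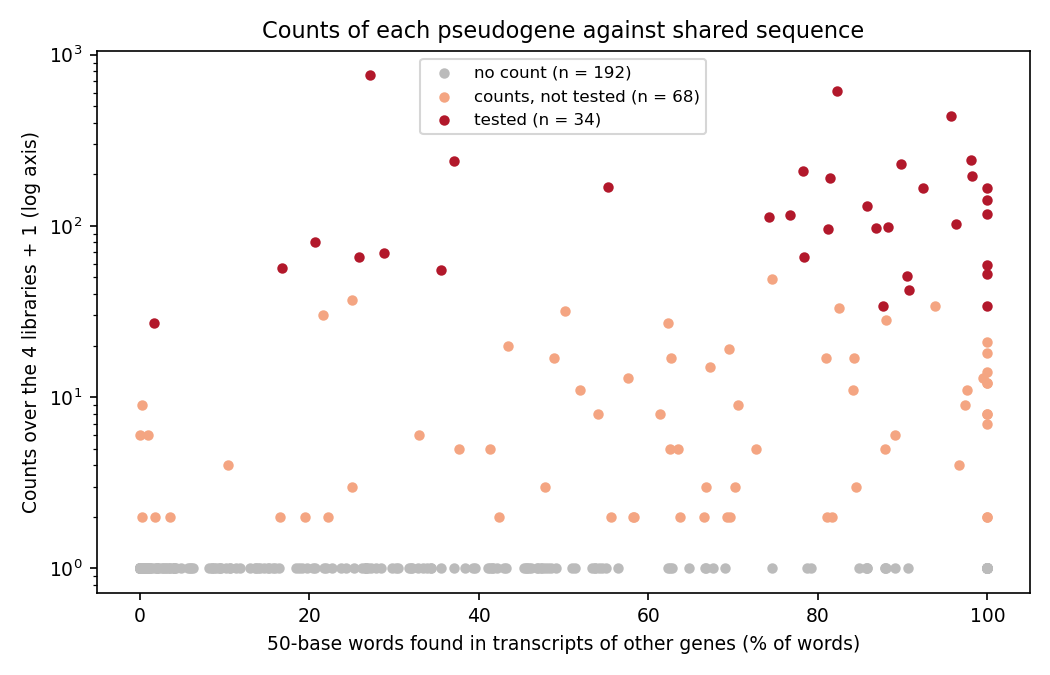
Counts of each of the 294 pseudogenes over the 4 libraries plus 1 (log axis) against the share of its 50-base words found in transcripts of other genes. Points without a count (192) lie along the bottom across the range, and most tested members (26 of 34) lie at 50% or more.

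The 12 pseudogenes that were identical to their parent over the aligned part included 11 with counts, 570 in all. The Rps12 copies went the other way. Rps12 encodes a protein of the small subunit and has 23 members, 15 of them on the X chromosome, with a median identity of 97.5% to the parent. In 9 of the 23, every word occurred in another gene while under 50% occurred in Rps12 itself, and none of these 9 had a count. The Rpl31 family is the largest with 24 members, of which 5 had counts, 19 counts in all. Reading frames were compared as well, and 40 of 81 members whose longest open reading frame reached 95% of the parent's had counts, against 62 of 211 with a shorter frame.

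Rpsa-ps10 and Rpl3-ps1 were among the members with the most counts, and both lie outside other genes. Rpsa encodes a small subunit protein also known as the laminin receptor, and Rpsa-ps10 (chr3:150072658-150073542, minus strand) was 99.3% identical to it. Its levels were 78.2 and 96.4 CPM with Runx1 and 43.5 and 53.2 CPM with IgG, without overlap, with a fitted log2 change, Runx1 over IgG, of 0.83 ± 0.37 (SE, edgeR adjusted p = 0.36) beside 0.68 for Rpsa. Rpl3 encodes a large subunit protein near the peptidyl transferase centre. Rpl3-ps1 (chrX:13202571-13203780, plus strand) differs from it by 2 mismatches over its length and had 54.3 and 66.2 CPM against 32.8 and 38.7 CPM, again without overlap. The value of 0.73 ± 0.43 on the log2 scale missed the threshold (edgeR adjusted p = 0.504). Rpl3 passed it at 1.01 ± 0.14 (edgeR adjusted p = 0.0303), but not with a correction for length and GC content (0.66, edgeR adjusted p = 0.121) or with scaling to the spike-in RNAs (-0.26). Rpl3 had 864.2 and 978.1 CPM against 423.6 and 473.8 CPM.

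Among large subunit copies, 4 members of the Rpl17 family were tested, with values in both directions. Rpl17-ps3 had 27.5 and 30.7 CPM with Runx1 and 13.8 and 12.9 CPM with IgG, with a fitted log2 change of 1.09 ± 0.61 (edgeR adjusted p = 0.479). Rpl17-ps10 had 23.3 and 20.1 CPM against 8.85 and 7.66 CPM, with a fitted log2 change of 1.36 ± 0.70 (edgeR adjusted p = 0.433). In both, the Runx1 libraries lay above the IgG libraries. Rpl17-ps8 had 15.5 and 19.6 CPM with Runx1 and 31.2 and 24.2 CPM with IgG, with a fitted log2 change of -0.68 ± 0.60 (edgeR adjusted p = 0.690). It was the only tested member with both Runx1 libraries below both IgG libraries. It lies at chrX:96484859-96485479 on the plus strand inside Heph, a copper-dependent ferroxidase gene of the same strand, and 98.1% of its words are shared. Rpl17-ps9, outside the rule for named members and shown to complete the family, had 5.37 and 14.3 CPM against 4.16 and 17.3 CPM, so its libraries overlapped. Rpl17, the parent, had 81.8 and 62.5 CPM against 32.5 and 27.8 CPM, with a fitted log2 change of 1.22 ± 0.42 (edgeR adjusted p = 0.243).

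Other large subunit copies with many counts were Rpl14-ps1, Rpl21-ps15 and Rpl10-ps6. Rpl14-ps1 (chr7:45324965-45325617, plus strand) lies inside Trpm4, a cation channel gene on the opposite strand. It had 41.2 and 24.9 CPM with Runx1 and 12.8 and 17.7 CPM with IgG, with a fitted log2 change of 1.09 ± 0.62 (edgeR adjusted p = 0.492) beside 1.00 for Rpl14. Trpm4 had 2.39 and 65.2 CPM against 2.86 and 11.7 CPM, and its part in the counts of Rpl14-ps1 was not tested. Rpl21-ps15, inside the kinase gene Wnk3 on the opposite strand, had 31.6 and 22.8 CPM against 17.4 and 12.9 CPM, with a fitted log2 change of 0.81 ± 0.62 (edgeR adjusted p = 0.640). Rpl10-ps6, inside Ide, the insulin-degrading enzyme gene, on the same strand, had 21.5 and 20.1 CPM against 13.3 and 16.5 CPM. Its log2 fold change was 0.45 ± 0.64 (edgeR adjusted p = 0.829), beside 1.06 for Rpl10. The Runx1 libraries of these 3 members lay above their IgG libraries, with the narrowest gap in Rpl10-ps6.

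**Figure D2:**
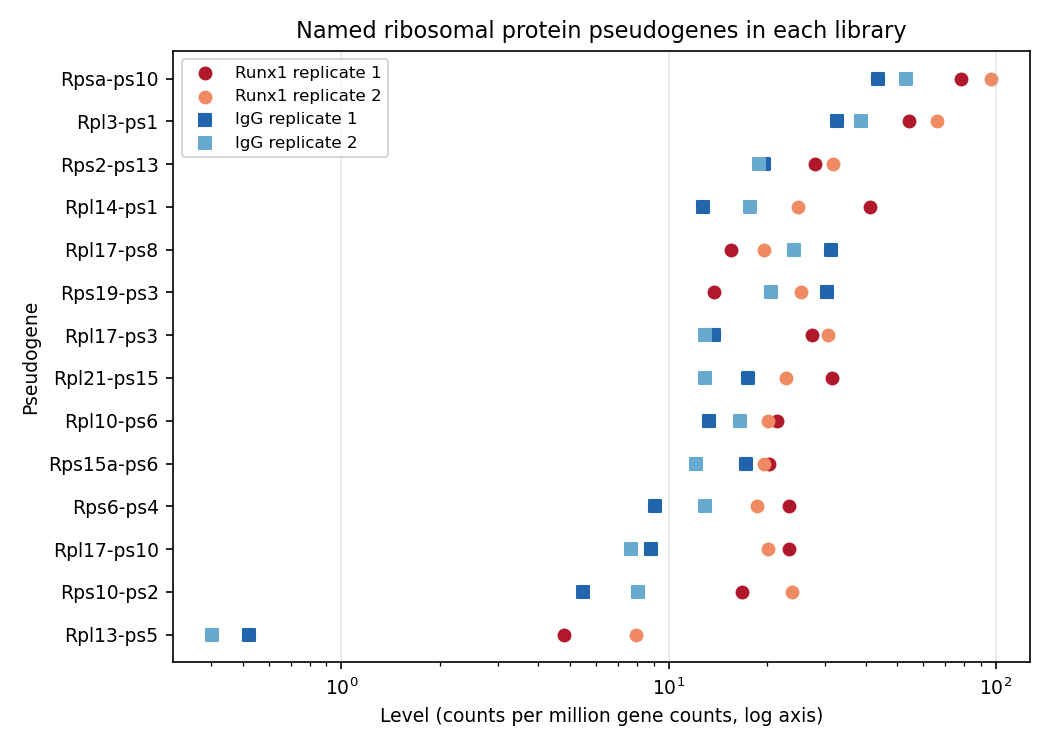
Level of each of the 14 named pseudogenes in each library, in counts per 1000000 gene counts on a log axis, with Runx1 libraries as circles and IgG libraries as squares. The Runx1 circles lie to the right of the squares in all but Rpl17-ps8, where they lie to the left (15.5 and 19.6 against 31.2 and 24.2 CPM), and Rps19-ps3, where they overlap.

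Small subunit copies included the only named member whose libraries overlapped. Rps19-ps3, a copy of the gene mutated in Diamond-Blackfan anaemia in humans, had 13.7 and 25.4 CPM with Runx1 and 30.4 and 20.6 CPM with IgG, with a fitted log2 change of -0.41 ± 0.64 (edgeR adjusted p = 0.851). Rps19 had 81.8 and 99.6 CPM against 32.5 and 39.5 CPM, with a fitted log2 change of 1.31 ± 0.38 (edgeR adjusted p = 0.186). This member is 95.4% identical to Rps19 and shares 37.1% of its words. Rps2-ps13 had 28.1 and 31.8 CPM against 19.5 and 18.9 CPM, with a fitted log2 change of 0.61 ± 0.58 (edgeR adjusted p = 0.714) beside 0.74 for Rps2. Rps15a-ps6, inside Nudcd3 on the same strand, had 20.3 and 19.6 CPM against 17.2 and 12.1 CPM, with a fitted log2 change of 0.41 ± 0.66 (edgeR adjusted p = 0.852).

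Rps6-ps4 had a value close to that of its parent and Rps10-ps2 did not. Rps6, a small subunit protein phosphorylated by S6 kinases, and its identical copy Rps6-ps4 gave log2 fold changes of 0.80 and 0.90. Rps6-ps4, inside 2600014E21Rik on the opposite strand, had 23.3 and 18.6 CPM against 9.11 and 12.9 CPM, without overlap (SE 0.69, edgeR adjusted p = 0.635). Rps10-ps2 had 16.7 and 23.8 CPM against 5.46 and 8.06 CPM, with a fitted log2 change of 1.56 ± 0.76 (edgeR adjusted p = 0.402). Rps10 itself had 21.5 and 7.95 CPM against 5.98 and 34.3 CPM, with a fitted log2 change of -0.48 ± 0.93 (edgeR adjusted p = 0.886). That negative value rests on single libraries, since it was 1.24 without IgG replicate 2 and 0.056 without Runx1 replicate 2.

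Rpl13-ps5 had the smallest p of all members and the fewest shared words of those tested. It lies at chrX:94789717-94790346 on the plus strand, outside other genes, is 88.6% identical to Rpl13 and shares 1.72% of its words. It had 8 and 15 counts in the Runx1 libraries and 2 and 1 in the IgG libraries, that is 4.78 and 7.95 CPM against 0.520 and 0.403 CPM. The ratio of the pooled CPM was 13.6, with an exact 95% interval of 4.11 to 70.8 for counting error alone. The unadjusted p of the edgeR quasi-likelihood test was 0.0387 and the adjusted p was 0.322, so that no difference was shown. Rpl13, at 297.2 and 308.9 CPM against 117.9 and 159.1 CPM, had a log2 fold change of 1.1.

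No member was called at a false discovery rate of 0.05. Of the 34 tested members, 0 were higher and 0 lower with Runx1 by edgeR, whereas among all 12401 genes tested 0.306% were called higher and 0.339% lower. DESeq2 and limma-voom also called 0. At an unadjusted p under 0.05, edgeR had 1 member, Rpl13-ps5, on the higher side, where 6.88% of all tested genes lay, and 0 on the lower side, where 7.36% lay. The log2 fold change was above 0 in 26 of 34 members with a median of 0.73, beside a median of 0.027 for all genes; with scaling to the spike-in RNAs only 7 were above 0, the median of all genes being -1.25 and that of the members -0.55. With the correction for length and GC content, the median of the members was 0.25, and the values of 10 of the 14 named members moved by over 1.5 times. Among them, Rpsa-ps10 moved to 0.28, Rpl3-ps1 to 0.31, Rps2-ps13 to 0.058 and Rpl10-ps6 to 0.047, and Rps2 moved to 0.21. Both Runx1 libraries lay above both IgG libraries in 23 of 34 members, against 24.1% of all tested genes, and below in 1, against 21.3%. Large and small subunit copies had medians of 0.77 (20 tested) and 0.67 (14 tested).

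Among the parent genes, 3 were called. Of 60 parents, 59 were tested. By edgeR, 3 passed as higher with Runx1, beside 0.306% of all tested genes, and 0 as lower, beside 0.339%. The median log2 fold change was 0.82, or -0.47 with spike-in scaling and 0.53 with the correction for length and GC content. At an unadjusted p under 0.05, edgeR had 30 parents on the higher side and 0 on the lower, beside 6.88% and 7.36% of all tested genes. The 3 were Rpl3, Rplp0, the stalk protein gene, with a fitted log2 change of 1.61 ± 0.17 (edgeR adjusted p = 0.00961), and Rps4x, with 0.92 ± 0.16 (edgeR adjusted p = 0.0493). Rplp0 and Rps4x were singled out after their values were seen. The count of parents called was 0 with spike-in scaling, 1 with the correction for length and GC content and 14 by DESeq2. Both Runx1 libraries lay above both IgG libraries in 52 of the 59, against 24.1% of all tested genes.

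Pooled over all members, the level was 743.7 and 800.1 CPM in the Runx1 libraries and 483.2 and 529.8 CPM in the IgG libraries. The means were 771.9 ± 39.9 and 506.5 ± 33.0 CPM (SD, n = 2 each), a ratio of 1.52, or 0.61 on the log2 scale. Per spike-in count, the direction was the opposite, with 2.09 and 2.12 member counts in the Runx1 libraries and 3.76 and 3.03 in the IgG libraries, or -0.69 on the log2 scale. The pooled parents had 10447.7 and 11161.4 CPM against 5826 and 5861 CPM, a ratio of 1.85, or 0.89 on the log2 scale, and -0.42 per spike-in count. The members thus made up a smaller share of the counts of members and parents together in the Runx1 libraries. The share was 6.65% (exact 95% interval 6.29 to 7.01) and 6.69% (6.37 to 7.02) with Runx1. With IgG it was 7.66% (7.33 to 8.0) and 8.29% (7.87 to 8.73). The group means differed by -1.31 percentage points, and the log2 ratio of members was 0.28 below that of parents. These shares are of counts with no correction for length, and 2 against 2 libraries cannot give an exact two-sided permutation p under 0.33, so no test was made.

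**Figure D3:**
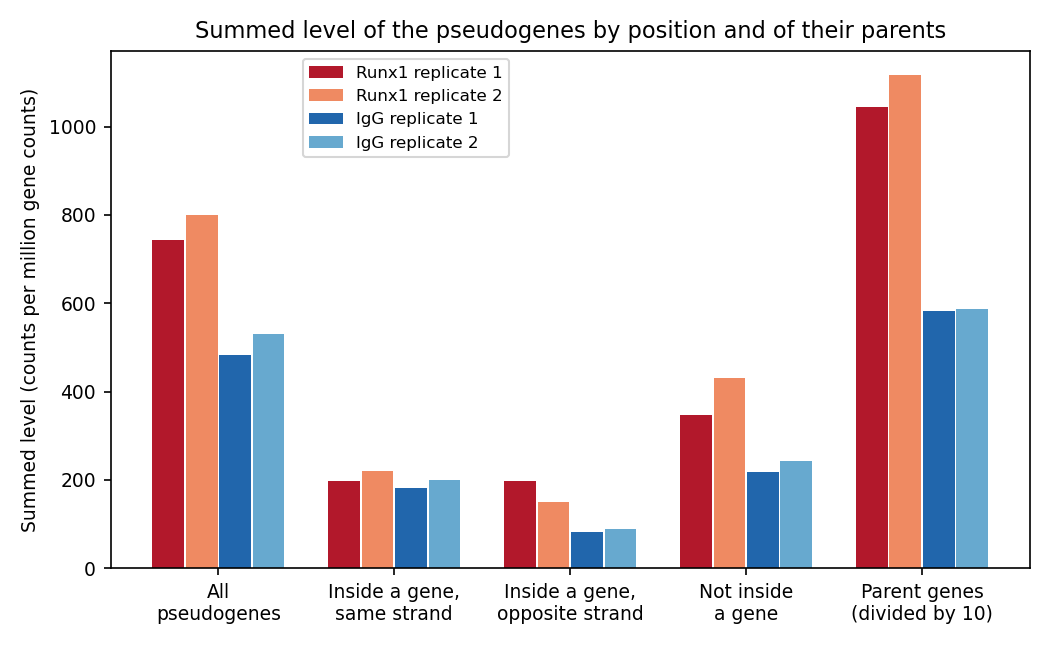
Summed level in counts per 1000000 gene counts for all 294 pseudogenes, for the members split by position, and for the 60 parent genes divided by 10, with 1 bar per library. All pseudogenes together were at 743.7 and 800.1 CPM with Runx1 and 483.2 and 529.8 CPM with IgG, whereas members inside a gene of the same strand were at 198.2 and 220.4 against 182.1 and 199.0 CPM.

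Members were also split by shared words. The 120 members with at least 50% of words shared, of which 74 had counts, summed to 562.8 and 639.0 CPM with Runx1 and 345.0 and 388.4 CPM with IgG, a ratio of 1.64. The 26 tested among them had a median log2 fold change of 0.77. The 174 members with a smaller share, of which 28 had counts, summed to 180.8 and 161.1 CPM against 138.2 and 141.4 CPM, a ratio of 1.22. Much of these sums came from a single member. The 8 tested among the 174 had a median of 0.043, with 4 above 0 and 4 below. No test was made of the difference between these groups, since members share reads and libraries.

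Of 3 positions relative to other genes, the ratio was smallest inside a gene of the same strand. In all, 26 members lie wholly inside a gene of the same strand, 62 only inside a gene of the opposite strand and 206 inside none. This split was made after values had been seen. The same-strand members, none of which overlaps an exon of another gene, had counts in 18 of 26, against 21 of 62 and 63 of 206. They summed to 198.2 and 220.4 CPM with Runx1 and 182.1 and 199.0 CPM with IgG, so that the groups overlapped, at a ratio of 1.1. The 9 tested had log2 fold changes from -0.68 to 0.52 with a median of -0.086. Members that lie only inside a gene of the opposite strand summed to 197.6 and 149.9 CPM against 82.7 and 88.2 CPM, a ratio of 2.03. Members in no gene summed to 348.0 and 429.7 CPM against 218.3 and 242.5 CPM, a ratio of 1.69. The 25 tested members of these other positions had a median of 0.94, with 22 above 0.

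Both splits were then combined. Same-strand members with at least 50% of words shared summed to 91.3 and 120.3 CPM with Runx1 and 99.9 and 101.9 CPM with IgG, a ratio of 1.05. Same-strand members with fewer shared words summed to 106.8 and 100.1 CPM against 82.2 and 97.1 CPM, a ratio of 1.15. Only 4 of these 12 had counts, and most of their sum came from a single member. The remaining members with at least 50% shared summed to 471.5 and 518.7 CPM against 245.1 and 286.5 CPM, and those with fewer to 74.0 and 60.9 CPM against 55.9 and 44.3 CPM, at ratios of 1.86 and 1.35. The median log2 fold changes of these last groups were 0.92 (20 tested) and 0.97 (5 tested). Values lay above 0 in 19 of the 20 and in 3 of the 5. Both Runx1 libraries lay above both IgG libraries in 19 of the 20 and in 1 of the 5, against 24.1% of all tested genes. The 5 ranged from -0.54 to 3.61, so their median carries little weight. Inside a gene of the same strand, strand cannot tell a read from an intron of the host from a read of the copy. Inside a gene of the opposite strand it could, but the strand setting of the counting is not given in the sources used here.

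Set beside its own parent, a member inside a gene of the same strand was lower in 8 of 9 cases, with a median difference in log2 fold change of -1.15. The remaining members were lower than their parent in 11 of 25 cases, with a median difference of 0.095. Over all 34, 19 were lower and 15 higher, with a median of -0.12. The 9 hosts had a median log2 fold change of 0.022 and none was called. Nup93, a nuclear pore gene and host of Rpl10-ps5, had the highest of these, 1.43 ± 0.31 (edgeR adjusted p = 0.0904). Rpl10-ps5, named here for its host, had -0.086. Among the same-strand hosts of named members, Heph had 0.64 ± 0.71 beside -0.68 for Rpl17-ps8. Ide had -0.61 ± 0.64 beside 0.45 for Rpl10-ps6, and Nudcd3 had -0.033 ± 0.19 beside 0.41 for Rps15a-ps6. The part of host reads in the counts of these members was not tested. Leaving out all same-strand members brought the pooled ratio to 1.78 and the difference from the parents to -0.054 on the log2 scale, and the share to 4.95% against 5.13%.

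**Figure D4:**
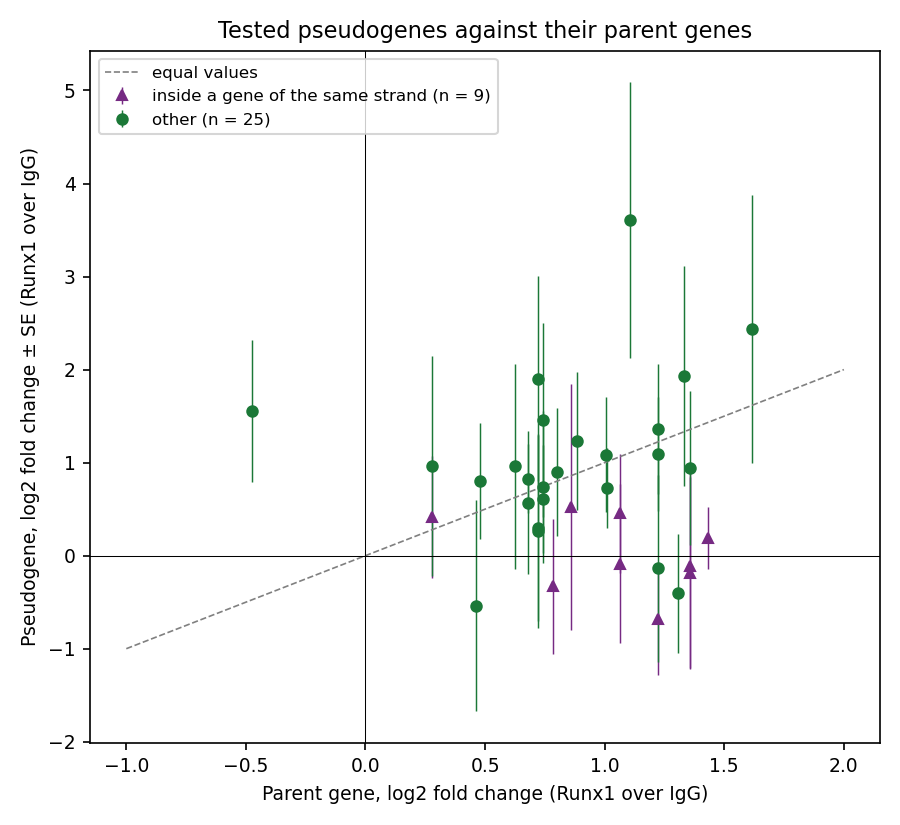
Log2 fold change (Runx1 over IgG) of each of the 34 tested pseudogenes with its standard error against that of its parent gene, with members inside a gene of the same strand as triangles. Of the 9 triangles, 8 lie below the dashed line of equal values, and of the 25 circles 11 do.

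Within families, the share of counts that fell on pseudogenes ranged from 0 to most of the family. Of 60 families, 17 had no count on any member. Of the 53 families with at least 100 counts in all, 14 had no count on any member. In the other 39, the share was lower in both Runx1 libraries than in both IgG libraries in 11, higher in 6 and overlapping in 22. There is no such share over all genes to set beside these numbers, and no test was made. Some rest on few pseudogene counts, such as 1 and 2 against 6 and 3 in Rpl7 (lower). Rpl27 (higher) had 2 and 3 against 2 and 1. In the Rpl17 family, the share was 47.3% and 58.7% with Runx1 and 64.6% and 69.3% with IgG. In the Rpl23a family, it was 39.2% and 54.0% against 55.1% and 72.8%. Rpl36a, with 21.5% and 33.9% against 46.5% and 48.2%, and Rps19, with 17.96% and 23.9% against 49.4% and 38.8%, also had lower shares with Runx1. The shares of Rps10, 46.3% and 76.9% against 59.7% and 26.1%, and of Rps15a, 38.7% and 43.4% against 41.2% and 29.9%, overlapped. Rpl21, with 15 members, stayed between 27.8% and 33.3% in all 4 libraries. In the Rpl7a family with 13 members, the share was higher with Runx1, 6.69% and 7.33% against 5.99% and 5.54%.

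**Figure D5:**
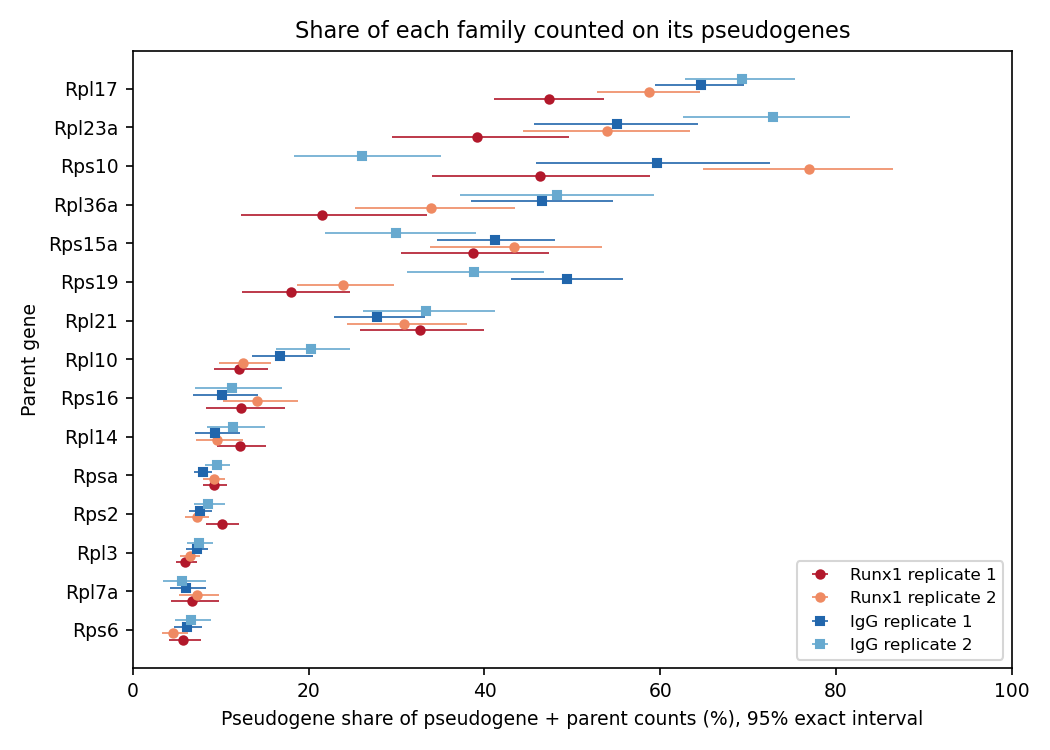
Share of each family's counts that fell on its pseudogenes, in percent, for 15 families with at least 100 pseudogene counts, with the exact 95% interval of counting error in each library. Runx1 libraries (circles) lie left of IgG libraries (squares) in Rpl17, Rpl23a, Rpl36a, Rps19, Rpl10, Rpl3 and Rps6. In all of these but Rps19, some Runx1 and IgG intervals overlap. The circles lie right of the squares in Rpl7a and Rps16, and among the squares in the other families.

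Other processed pseudogenes had a median nearer to that of all genes than the members had, though still above it. Of 9943, 1683 had counts and 319 were tested, with 0 called by edgeR. Before adjustment, edgeR had 16 at p under 0.05 on the higher side and 8 on the lower, beside 6.88% and 7.36% of all tested genes. The median log2 fold change was 0.35, with 210 above 0 and 109 below. Both Runx1 libraries lay above both IgG libraries in 128 of the 319, against 24.1% of all tested genes, and below in 37, against 21.3%. Pooled, they were at 12044.4 ± 36.5 CPM with Runx1 and 9777 ± 527 CPM with IgG (SD, n = 2 each), a ratio of 1.23. The 27 tested -ps pseudogenes of genes outside the rule had a median of 0.37, and the 266 with a Gm symbol 0.33.

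Total gene counts were 1675488 and 1887301 in the Runx1 libraries and 3843318 and 2482045 in the IgG libraries. Between 71 and 78 members had a count in each library. All 10 endothelial markers were detected, with a summed level of 1446 to 1812 CPM in the Runx1 libraries and 1745 to 1779 CPM in the IgG libraries. Pecam1, which encodes CD31, had 93.1 and 102.8 CPM against 99.9 and 79.4 CPM. The 7 erythroid markers were all detected and summed to 849.4 to 850.5 CPM with Runx1 and 449.6 to 482.1 CPM with IgG, and the 6 neural markers, all detected, to 519.3 to 633.2 CPM and 381.1 to 401.0 CPM. Both sums were higher with Runx1, as were the pooled pseudogenes, and their part in that difference was not tested. The 6 mesenchymal markers summed to 667.3 to 688.8 CPM against 753.4 to 779.8 CPM, the 5 epithelial markers to 150.5 to 151.6 against 113.6 to 150.9 CPM, and the 6 markers of blood progenitors and leukocytes to 110.4 to 189.7 against 189.0 to 194.9 CPM, all detected. These are bulk libraries of immunoprecipitated RNA. Fewer cells of a type, less RNA per cell and less RNA recovered with the antibody cannot be told apart in them.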

How the data were processed

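The authors deposited unnormalized whole-number counts for Ensembl genes in 1 table with a column for each of the 4 libraries, and all columns were mapped by name. The submitters' processing notes list STAR 2.7.3a, Salmon 1.1.0, Trimmomatic 0.36 and mm10 without saying what each was used for. Not given in the sources used here are the gene annotation, strandedness, filtering, and whether reads were counted or estimates rounded; these ways treat reads shared by near-identical copies differently, so the values of young copies and their parents are uncertain. Of 55573 gene identifiers, 55480 were found in GENCODE M21. The 92 spike-in rows entered neither library totals nor the test.

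Levels are counts per 1000000 gene counts (CPM). The test was the quasi-likelihood test of edgeR 4.0.16 under R 4.3.3 (TMM, filterByExpr with a minimum count of 10 and minimum total of 15), over all 4 libraries without a block, two-sided, with Benjamini-Hochberg adjustment across the 12401 genes tested and a false discovery rate of 0.05. Standard errors are those implied by the test statistic. The biological coefficient of variation was 46.1%. Pooled values were not tested. Members were aligned to the transcripts of their parent with blastn 2.17.0 on both strands, and a host is a gene that wholly contains the member. The sample titles gave groups and replicate numbers. The code of the test was checked on simulated counts that scattered less than these data. That check therefore does not show how many true or false calls to expect here.

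Members and gene lists were chosen with earlier results of these data known. Named members are the 12 with the highest mean CPM and the up to 6 tested members with the smallest p, with their parents and hosts; named families are the 6 with the most members and the 6 with the largest pseudogene share among those with at least 100 counts. A member that this rule takes, with its parent and family, is not reported here, although it stays in counts over all members. Alternatives were DESeq2 1.42.0 as a test and its size factors, library totals, no filter and a stricter one (10 counts in each library), a replicate block, limma-voom (limma 3.58.1), a threshold of 0.1, spike-in scaling, offsets from transcript length and GC content (splines, 5 degrees of freedom), each library left out, and subsets of the pooled members. The subsets with at least 50% of words shared, and with or without members inside a gene of the same strand, and spike-in scaling of pooled values, were added after seeing the data.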

Additional observations from a re-analysis of the deposited data

How the results depend on the processing

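The count of members called was 0 in every alternative except spike-in scaling, where Rpl17-ps8 was called lower (count 1, log2 fold change -1.99). That scaling also turned the log2 fold changes of Rpl10 (-0.20), Rpl10-ps6 (-0.80), Rpl13 (-0.14), Rpl14 (-0.26), Rpl14-ps1 (-0.14), Rpl17 (-0.062), Rpl17-ps3 (-0.19), Rpl21 (-0.82), Rpl21-ps15 (-0.49), Rpl3 (-0.26), Rpl3-ps1 (-0.54), Rps15a (-0.99), Rps15a-ps6 (-0.90), Rps2 (-0.55), Rps2-ps13 (-0.67), Rps6 (-0.47), Rps6-ps4 (-0.34), Rpsa (-0.60) and Rpsa-ps10 (-0.43), by its construction, since it shifts the median of all genes to -1.25. Other reversals were Rps10 with limma-voom (0.051) and with 1 library left out (-1.38 to 1.24; 1.24 without IgG replicate 2 and 0.056 without Runx1 replicate 2), and Rps15a with 1 left out (-0.11 to 0.55; -0.11 without Runx1 replicate 1); the cause was not tested. The parents called numbered 3, with 0 under the replicate block or spike-in scaling, 1 with the length and GC correction, 10 at a threshold of 0.1, 11 by limma-voom, 13 without a filter or with the strict filter, 14 by DESeq2 and 3 to 10 with a library left out.

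The pooled values (log2 ratio 0.61, difference from the parents -0.28, share difference -1.31 points) kept their signs in the subsets and with each library left out. Spike-in scaling, added after seeing the data, turned the log2 ratio to -0.69 and left the difference at -0.27; it does not enter the share. The log2 ratio, the difference from the parents and the share difference were 0.74, -0.15 and -0.36 for members outside every other gene, 0.71, -0.17 and -0.64 with at least 50% of words shared, 0.29, -0.60 and -0.77 with under 50%, and 0.83, -0.054 and -0.18 without same-strand members. For same-strand members alone, the log2 ratio was 0.14 and the difference -0.75; the median over members gave 0.76 and -0.12, and has no share. The alternative without the most abundant member is not reported here. Leaving out 1 library gave log2 ratios of 0.54 to 0.68, differences from the parents of -0.34 to -0.22 and share differences of -1.62 to -0.991.

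The replicate block called 0 members and 0 parents (Rpl3, edgeR adjusted p = 0.0799). Labels do not say that numbers pair libraries, and deviations of same-numbered libraries correlated at 0.0044 over 12401 genes. The 68 members with counts that were not tested had too few counts for a statement about direction.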

Other observations

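The 6 genes with a symbol of the same form that are annotated as protein coding had few counts. Rpl9-ps6 had 8 and 11 counts with Runx1 and 13 and 14 with IgG, and was the only one tested (log2 fold change 0.21 ± 1.14, edgeR adjusted p = 0.970). Rps12-ps3 had 7 and 6 counts against 10 and 7. In CPM the order was the opposite, 4.18 and 3.18 against 2.60 and 2.82, since the IgG libraries hold more gene counts. Rpl10-ps3 had 4 and 2 against 1 and 0, Rpl36a-ps1 had 0 and 2 against 3 and 0, and Rpl9-ps1 and Rpl36-ps4 had none.

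Gene copies of ribosomal proteins outside the rule varied as well. Rps4l, annotated as a transcribed processed pseudogene, had 58 and 68 counts with Runx1 and 17 and 37 with IgG, that is 34.6 and 36.0 CPM against 4.42 and 14.9 CPM, or 1.86 ± 0.74 as log2 fold change (edgeR adjusted p = 0.309). Rpl7l1 had 22.7 and 45.0 CPM against 24.5 and 9.27 CPM, and Rpl22l1 had 11.9 and 3.71 CPM against 4.16 and 11.3 CPM, so that their libraries overlapped. Rpl36al had no count in the Runx1 libraries and 11 and 4 counts in the IgG libraries, or 2.86 and 1.61 CPM. The floor of 3 counts was 1.79 and 1.59 CPM in the Runx1 libraries, so absence with Runx1 was not shown. Rps27l had 7 and 6 counts with Runx1 and 2 and 4 with IgG, or 4.18 and 3.18 CPM against 0.520 and 1.61 CPM. Rps27rt had 1 and 4 counts against 0 and 1, or 0.597 and 2.12 CPM against 0 and 0.403 CPM. In both, the Runx1 libraries lay above the IgG libraries in CPM, and neither was tested. Rpl3l, Rpl10l and Rpl39l, which are known from muscle and testis, had no count in any library.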
